A study of Mus musculus with 3 samples.

Results

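The MAP kinase cascade genes described here are the protein-coding genes named Mapk, Map2k, Map3k, Map4k or Mapkapk followed only by a number. The rule uses the name alone and found 46 of 22028 protein-coding genes, among 55536 annotated genes in all. They fall into 13 MAPK, 7 MAP2K, 18 MAP3K, 5 MAP4K and 3 MAPKAPK genes. Their RNA was measured in mouse bone-marrow-derived macrophages, primary cells of the C57BL/6J strain, in total cytosolic RNA after removal of ribosomal RNA. All cells were exposed to 100 ng/ml of Lipid A for 12 h, kept without it for 12 h and given 100 ng/ml again for 40 min. Lipid A, the membrane anchor of the endotoxin of Gram-negative bacteria, is recognised by Tlr4. There is 1 group, with 3 libraries that the labels number as biological replicates, and no genetic change is named. Sex and age were not collected, and the shared donor label does not tell whether the cultures came from separate animals, so the spread given below may be partly technical. Untreated cells, cells stimulated once and nuclear RNA were not analysed here, so every value is a level or an isoform share after the second exposure, and no difference between conditions was tested.

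A MAP kinase cascade is a relay of protein kinases. A MAP4K or another upstream signal activates a MAP3K, which phosphorylates a MAP2K, which in turn phosphorylates a MAPK on a threonine and a tyrosine of its activation loop. The MAPKs form the ERK, JNK and p38 branches, and the MAPKAPKs are kinases that MAPKs switch on. In macrophages these branches act after Tlr4 and control, among other things, the synthesis, stability and translation of inflammatory mRNAs. Activity of the cascade is set by phosphorylation, which RNA levels do not show.

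Expected counts on annotated genes summed to 38197192, 46327891 and 38685666 in replicates 1, 2 and 3. A count of 0 allows up to 3 counts, equal to 0.0785, 0.0648 and 0.0775 CPM, a limit that covers counting error only. The unit used for levels, TPM, is a share of all RNA per length. Its total was mostly 7SL RNA of the signal recognition particle (54.4% to 63.0%), with nuclear protein-coding genes at 27.7% to 33.3%, so a TPM of 1 here is a larger share of the mRNA than in a library without 7SL. Replicate 2 stood apart: the chi-square per degree of freedom over genes was 94.1 and 113 between it and replicates 1 and 3, and 44.7 between those, so no library was a copy of another. Malat1, a nuclear non-coding RNA, was at 1445, 485 and 1726 TPM in replicates 1, 2 and 3, and Neat1, of nuclear paraspeckles, at 87.7, 16.1 and 88.3 TPM. The part of nuclear RNA in the values below was not tested. All 8 macrophage markers were detected, with sums of 4037 to 5587 TPM. Neutrophil markers summed to 6.91 to 9.45 TPM. Of these S100a9 had 4.01 to 5.2 TPM, S100a8 had 2.56 to 4.23 TPM and Ly6g was at 0 in every library. B cell markers summed to 1.19 to 1.92 TPM, with Cd79b detected. Fibroblast and endothelial markers summed to 0.85 to 1.87 TPM, with Pecam1 at 0.72 to 1.39 and Col3a1 and Pdgfra at 0. T and NK cell, dendritic cell, mast cell and erythroid markers stayed at or below 0.52 TPM in sum. In these bulk samples fewer cells of a type and less RNA per cell cannot be told apart.

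Of the 46 kinase genes, 32 were detected, meaning at least 1 TPM in each of the 3 libraries. Over all protein-coding genes 41.4% were detected. The other 14 members were below 1 TPM in every library, as were 56.3% of protein-coding genes. Detection ran through all tiers, with 7 of 13 MAPK, 6 of 7 MAP2K, 12 of 18 MAP3K, 4 of 5 MAP4K and 3 of 3 MAPKAPK genes. The median level of all 46 was 2.83 on the log2(TPM + 1) scale, beside 0.23 over all protein-coding genes. Among detected genes the medians lay closer together, at 3.51 for the members and 3.25 for all protein-coding genes. Summed over the 46, the kinases held 573, 457 and 466 TPM in replicates 1, 2 and 3, or 0.163% to 0.172% of the TPM of nuclear protein-coding genes. The MAPK tier held 159 ± 20.8 TPM (SD, n = 3), the MAP3K tier 114 ± 15.2, the MAPKAPK tier 103 ± 17.1, the MAP2K tier 96.8 ± 10.5 and the MAP4K tier 25.7 ± 3.13.

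**Figure D1:**
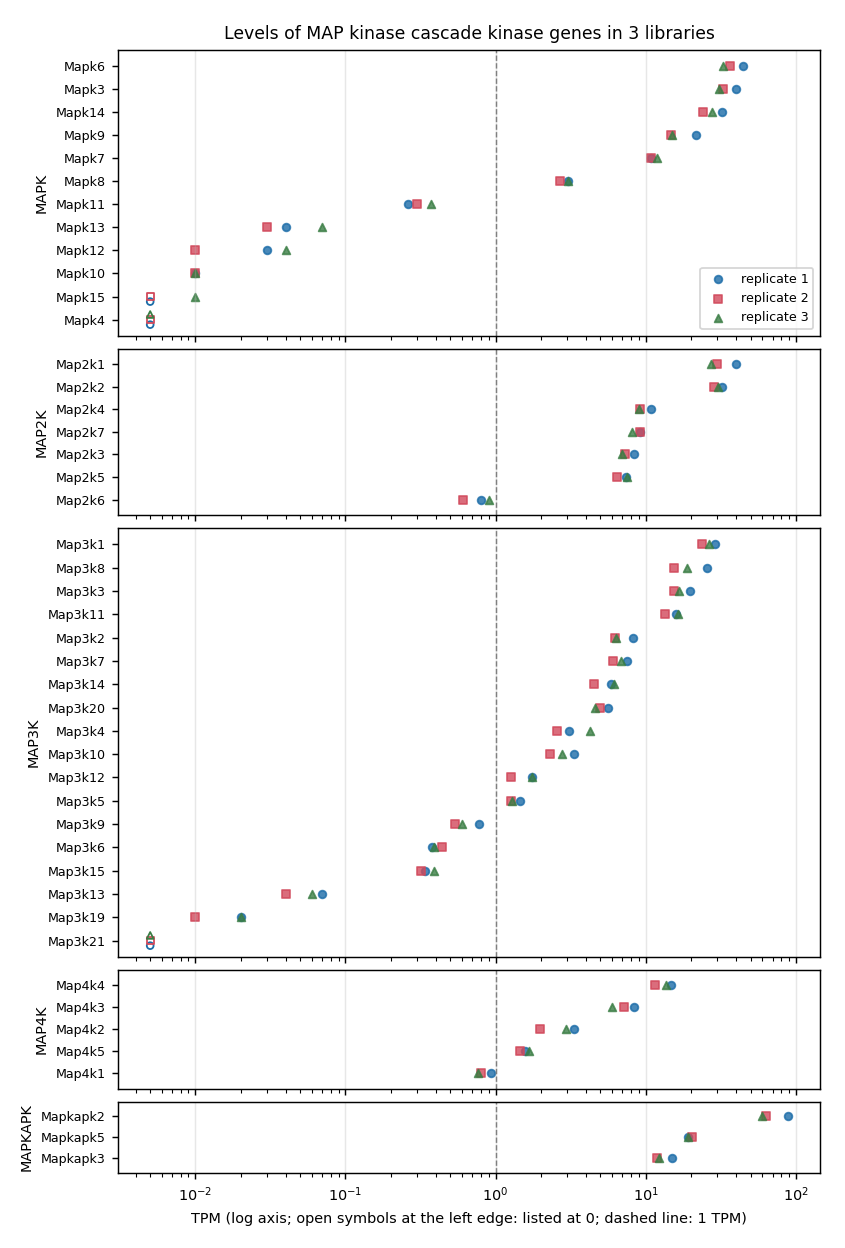
TPM of the kinase genes (log axis) in the 3 libraries, grouped by tier, with 1 symbol per library and open symbols at the left edge for genes listed at 0. The dashed line marks 1 TPM, and detected genes lie to its right in all libraries, with Mapkapk2 highest at 59.2 to 88.5 TPM.

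The highest member was not a MAPK but a kinase downstream of p38. Mapkapk2 encodes MK2, which p38 activates and which phosphorylates RNA-binding proteins that control the stability and translation of inflammatory mRNAs. It lies on chromosome 1 at 131053700 to 131097826, minus strand (mm10). Its level was 88.5, 63.6 and 59.2 TPM in replicates 1, 2 and 3, a mean of 70.4 ± 15.8 (SD, n = 3). That is rank 681 of 9118 detected protein-coding genes, and its range did not overlap that of any other member. Mapkapk5, which encodes the kinase PRAK, had 19.1, 20.2 and 19.1 TPM in replicates 1, 2 and 3. Mapkapk3, the closest relative of Mapkapk2, had 14.9, 12.0 and 12.2 TPM. The 3 ranges did not overlap, but the value of Mapkapk5 is less certain because its counts were not whole. Protein-coding transcripts held 71.9% ± 6.13 (SD, n = 3) of the TPM of Mapkapk5 and 90.7% ± 2.95 of that of Mapkapk3. Of the TPM of the 3 genes, Mapkapk2 held 68.0% ± 3.7 (SD, n = 3). The ratio of Mapkapk2 to Mapkapk3 was 2.33 ± 0.15 on the log2(TPM + 1) scale, or 5.04-fold, and was in that direction in 3 of 3 libraries.

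Among the MAPKs Mapk6, Mapk3 and Mapk14, from different parts of the family, led in that order in 3 of 3 libraries. Mapk6 encodes ERK3, an atypical MAPK. Its gene lies on chromosome 9 at 75369062 to 75410005. In replicates 1, 2 and 3 it was at 44.6, 36.7 and 32.7 TPM. Mapk3, which encodes ERK1 (chromosome 7, 126759601 to 126765819), had 40.2, 32.6 and 30.9 TPM. Mapk14, which encodes p38 alpha (chromosome 17, 28691329 to 28748406), had 32.2, 24.3 and 27.8 TPM. The range of Mapk3 overlapped those of Mapk6 and Mapk14, while Mapk6 and Mapk14 did not overlap. Below them came Mapk9, which encodes JNK2, Mapk7, which encodes ERK5, and Mapk8, which encodes JNK1, and these steps had no overlap. Mapk7 was at 10.8, 10.8 and 12.0 TPM in replicates 1, 2 and 3.

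The p38 and JNK families were each held largely by 1 gene. Mapk14 held 98.6% ± 0.34 of the TPM of the classical p38 genes (SD, n = 3). Mapk11, p38 beta, had 0.26, 0.30 and 0.37 TPM in replicates 1, 2 and 3, from 32, 55 and 57 counts. Mapk13, p38 delta, rested on 2, 1 and 5 counts, and Mapk12, p38 gamma, on 2, 1 and 2 counts, so both were close to the limit that a count of 0 allows. The ratio of Mapk14 to Mapk11 was 4.46 ± 0.23 and that of Mapk14 to Mapk13 was 4.79 ± 0.19 on the log2(TPM + 1) scale, where the pseudocount of 1 sets the lower gene's part. Both ratios had the same direction in 3 of 3 libraries.

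Mapk9 held 85.1% ± 2.3 of JNK TPM (SD, n = 3). Its values were 21.6, 14.8 and 15.0 TPM in replicates 1, 2 and 3, and those of Mapk8 were 3.05, 2.68 and 3.06 TPM. The ranges were far apart, with a ratio of Mapk8 to Mapk9 of -2.19 ± 0.26 (log2 of TPM + 1, SD, n = 3). Mapk10, JNK3, known mainly from the nervous system, rested on 3, 1 and 3 counts.

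The coding sequences of the activation loops are shown because they hold the sites that MAP2Ks phosphorylate, and they show how alike the family members are and where ERK3 departs from them. Each sequence runs from the codons of the conserved DFG start of the loop to those of the conserved end of the segment, in mm10, read 5′ to 3′ along the gene's strand. Capitals mark the codons of the threonine and tyrosine that MAP2Ks phosphorylate with the residue between them, and in Mapk6 the 9 bases at the single phosphorylated serine of the atypical MAPKs. The p38 genes come first, Mapk14 at chr17:28728363-28728434 (plus strand), Mapk11 at chr15:89145839-89145910 (minus), Mapk12 at chr15:89134649-89134720 (minus) and Mapk13 at chr17:28776308-28776379 (plus). The JNK genes follow, Mapk8 at chr14:33392976-33393053 (minus), Mapk9 at chr11:49872788-49872865 (plus) and Mapk10 at chr5:102989654-102989731 (minus), then Mapk7 at chr11:61491395-61491487 (minus) and Mapk6, whose segment is split by an intron, within chr9:75395610-75397623 (minus).
Mapk14: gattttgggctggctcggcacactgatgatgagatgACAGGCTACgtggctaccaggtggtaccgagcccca
Mapk11: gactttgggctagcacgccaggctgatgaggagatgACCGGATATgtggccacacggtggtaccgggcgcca
Mapk12: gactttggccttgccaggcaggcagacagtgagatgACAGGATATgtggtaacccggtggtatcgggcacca
Mapk13: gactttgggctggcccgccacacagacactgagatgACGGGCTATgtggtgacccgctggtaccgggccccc
Mapk8: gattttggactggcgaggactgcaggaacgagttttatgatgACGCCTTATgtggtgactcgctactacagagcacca
Mapk9: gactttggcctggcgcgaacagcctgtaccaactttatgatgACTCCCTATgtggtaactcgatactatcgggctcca
Mapk10: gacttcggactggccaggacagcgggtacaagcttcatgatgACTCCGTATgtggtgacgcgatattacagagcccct
Mapk7: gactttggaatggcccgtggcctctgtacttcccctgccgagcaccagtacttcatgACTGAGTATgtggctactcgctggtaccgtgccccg
Mapk6: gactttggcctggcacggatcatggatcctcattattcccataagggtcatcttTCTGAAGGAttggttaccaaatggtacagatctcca

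Over these segments the p38 genes were 73.6% to 80.6% identical in pairs, and the JNK genes 75.6% to 79.5%. The segments of Mapk14 and Mapk11 shared 57 of 72 bases, and those of Mapk8 and Mapk9 shared 59 of 78. The expected counts of Mapk14, Mapk11, Mapk8 and Mapk9 were whole numbers in every library, while that of Mapk6 was not, which means that some of its reads had been divided with other features. Also below 1 TPM in every library were Mapk15, with 0, 0 and 1 count, and Mapk4, which encodes the atypical MAPK ERK4, with 0 counts in all 3.

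In the MAP2K tier the 2 activators of ERK stood above the rest. Map2k1, which encodes MEK1 (chromosome 9, 64185770 to 64253631), was at 40.3, 30.0 and 27.4 TPM in the order of the replicates. Map2k2, which encodes MEK2 (chromosome 10, 81105915 to 81133975), had 32.1, 28.4 and 30.5 TPM. Their ratio of 0.08 ± 0.23 (log2, SD, n = 3) was smaller than its spread, and Map2k1 was the higher in 2 of 3 libraries. Without replicate 1 the ratio was -0.03. The step from Map2k2 down to the third gene, Map2k4, had no overlap.

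The MAP2Ks of the stress branches were lower and close to one another. Map2k4, which acts on JNK and also on p38, had 10.8, 9.21 and 9.09 TPM in replicates 1, 2 and 3. Map2k7, which acts on JNK, had 9.18, 9.10 and 8.09 TPM. Their ranges overlapped, with a ratio of 0.13 ± 0.10 (log2, SD, n = 3), which was 0.51 in the read-based tables, transcript tables quantified without an alignment file. Map2k5, which acts on ERK5, was at 7.36, 6.44 and 7.49 TPM in replicates 1, 2 and 3.

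Of the activators of p38, Map2k3 was detected and Map2k6 was not. Map2k3 had 8.39, 7.23 and 6.94 TPM in replicates 1, 2 and 3, and Map2k6 had 0.80, 0.61 and 0.90 TPM, from 80, 90 and 109 counts. Map2k3 held 90.7% ± 1.9 of their common TPM (SD, n = 3), and the ratio was 2.27 ± 0.18 on the log2(TPM + 1) scale in 3 of 3 libraries. Map2k6 was therefore present at a low level, not at 0.

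The MAP3K tier had the most genes. Map3k1, which encodes MEKK1 (chromosome 13, 111746428 to 111808993), was highest with 28.8, 23.8 and 26.4 TPM in replicates 1, 2 and 3. Map3k8, which encodes TPL2, the MAP3K that links Tlr4 to MEK1 and ERK in macrophages, had 25.8, 15.4 and 19.0 TPM. Map3k3, which encodes MEKK3 (chromosome 11, 106084613 to 106155446), had 19.8, 15.4 and 16.6 TPM. Neighbours among these 3 overlapped, as did Map3k3 and Map3k11, an MLK kinase that acts on JNK, at 16.0, 13.4 and 16.5 TPM. Map3k11 shares exon sequence with Pcnx3 on the opposite strand, which was at 9.63 ± 1.62 TPM (SD, n = 3), and whether counting used the strand is not given in the sources used here.

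Map3k8 stood above Map3k7, the other MAP3K best known from Tlr4 signalling. Map3k7 encodes TAK1, which activates both the IKK and the MAP2K branches, and had 7.51, 6.02 and 6.82 TPM in replicates 1, 2 and 3. The ratio of Map3k8 to Map3k7 was 1.41 ± 0.22 (log2, SD, n = 3), or 2.65-fold on the TPM + 1 scale, in 3 of 3 libraries. It was 0.84 in the rescaled read-based tables, where Map3k7 was 0.76 higher on the log2 scale than in the gene tables.

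The other MAP3K pairs also differed in level. Map3k2, which encodes MEKK2, had 8.29, 6.27 and 6.38 TPM in replicates 1, 2 and 3. That was below Map3k3 in 3 of 3 libraries, by -1.20 ± 0.05 (log2 of TPM + 1, SD, n = 3), the most even ratio among the MAP3K pairs. Map3k5, which encodes the oxidant-sensing ASK1, was the lowest detected member at 1.46, 1.26 and 1.29 TPM. Map3k1 exceeded Map3k5 by 3.54 ± 0.08 on the log2(TPM + 1) scale, where the pseudocount lowers the ratio, and by 4.20 with a pseudocount of 0.1.

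The middle of the tier lay between 1 and 7 TPM. Map3k14, which encodes NIK of the non-canonical NF-kB pathway, was at 5.52 ± 0.84 TPM (SD, n = 3), and Map3k20, which encodes the ribosome-stress kinase ZAK, was at 5.08 ± 0.52. Map3k4, the MLK gene Map3k10 and the neuronal-injury kinase gene Map3k12 followed at 3.29 ± 0.87, 2.80 ± 0.52 and 1.59 ± 0.27 TPM. The value of Map3k12 is uncertain, because it shares exon sequence on the opposite strand with Pcbp2, at 174 ± 26.1 TPM, and its counts were not whole.

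Below 1 TPM in every library were the MLK genes Map3k9 and Map3k21, the ASK1 relatives Map3k6 and Map3k15, and Map3k13 and Map3k19. Map3k9 had 0.54 to 0.77 TPM from 172 to 190 counts. Map3k6 had 0.38 to 0.44 TPM and Map3k15 0.32 to 0.39, the latter with exon sequence shared with Pdha1 on the opposite strand. Map3k13 had 0.04 to 0.07 TPM, Map3k19 had 3, 3 and 5 counts, and Map3k21 had 0 counts in all libraries.

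Among the MAP4Ks the order was the same in every library for the detected genes. Map4k4, which encodes a Ste20-type kinase upstream of JNK (chromosome 1, 39900913 to 40026310), was the highest of them, at 14.8, 11.5 and 13.8 TPM in replicates 1, 2 and 3. Map4k3, known for its part in amino-acid signalling to mTORC1, had 8.41, 7.17 and 5.97 TPM. Map4k2 followed with 3.33, 1.97 and 2.94 TPM, and Map4k5 was at 1.57, 1.45 and 1.66 TPM. None of the 3 steps between these neighbours overlapped.

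The value of Map4k2 is uncertain. Its deposited TPM lay below its own deposited interval in all 3 libraries, for example 3.33 TPM beside bounds of 4.19 and 7.96 in replicate 1, and its protein-coding transcript held 49.3% ± 4.16 of its TPM (SD, n = 3). The ratio of Map4k2 to Map4k3 was -1.13 ± 0.32 (log2 of TPM + 1). Map4k1, which encodes HPK1 of blood cells, was below 1 TPM, with 0.93, 0.80 and 0.76 TPM in replicates 1, 2 and 3 from 112 to 129 counts. It was lower than Map4k4 in 3 of 3 libraries, by -2.97 ± 0.15 on the log2(TPM + 1) scale and by -3.85 with a pseudocount of 0.1.

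Over all 12 pairs compared, 11 had the same order in 3 of 3 libraries and 10 had ranges that did not overlap. The overlapping pairs were Map2k1 and Map2k2, and Map2k4 and Map2k7. These ratios are descriptions with no test, since 3 libraries cannot give a p below 0.25 in a two-sided exact sign-flip test.

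**Figure D2:**
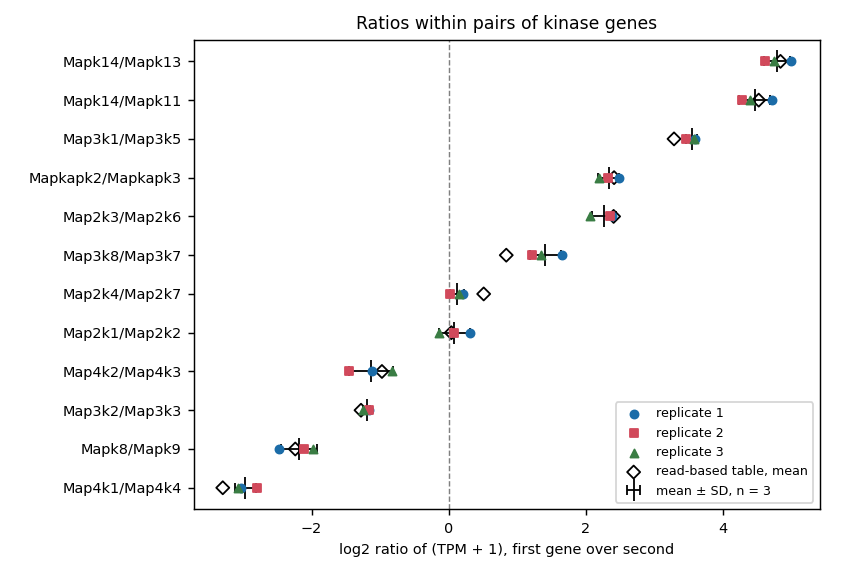
Log2 ratio of TPM + 1 for 12 pairs of kinase genes, first gene over second, with 1 filled symbol per library, the mean ± SD over 3 libraries and an open diamond for the mean in the rescaled read-based tables. The dashed line is equality, and the diamond of Map3k8/Map3k7 lies at 0.84 while its 3 libraries lie between 1.22 and 1.65.

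For most detected members 1 protein-coding transcript held the larger part of the gene's TPM, though seldom nearly all of it. The leading transcript, the one with the highest mean share of a gene's TPM, was protein-coding for all 32 detected members in both kinds of transcript table, and was the same transcript in both for 28. In the alignment-based tables it held over 90% for 6 members and under 50% for 9. Mapkapk2-201 held 99.3% ± 0.40 (SD, n = 3) of Mapkapk2, and 83.3% in the read-based tables. Protein-coding transcripts together held a median of 89.8% of a member's TPM, and 84.8% in the read-based tables.

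Among the members whose leading transcript differed were Mapk14, Mapk9 and Map3k7. For Mapk14 it was Mapk14-203 with 42.2% ± 5.04 (SD, n = 3) in the alignment-based and Mapk14-202 with 45.7% ± 4.13 in the read-based tables. For Mapk9 it was Mapk9-201 with 48.0% ± 3.44 and Mapk9-204 with 38.7% ± 3.30, and for Map3k7 it was Map3k7-202 with 44.8% ± 9.91 and Map3k7-201 with 28.7% ± 1.70. Whole-transcript shares of these genes are thus not fixed by the data, and shares of a given coding exon were compared instead, an analysis chosen after the values were seen.

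Mapk14 has a pair of mutually exclusive coding exons, which differ over a stretch of 75 bases and are the known difference between its splice forms within the kinase domain. The exon of Mapk14-202, with its stretch at chr17:28737016-28737090 (plus strand, mm10), held 88.6%, 85.5% and 82.8% of the TPM of both forms in replicates 1, 2 and 3. The mean was 85.7% in the alignment-based tables and 85.1% in the read-based tables, so this share was nearly the same in both. The rest came from the exon of Mapk14-201, with its stretch at chr17:28740685-28740759. The sequences are shown because they are the whole coding difference between these 2 transcripts, and they are 45.3% identical.
Mapk14-202 exon: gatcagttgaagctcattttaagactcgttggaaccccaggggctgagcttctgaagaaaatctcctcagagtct
Mapk14-201 exon: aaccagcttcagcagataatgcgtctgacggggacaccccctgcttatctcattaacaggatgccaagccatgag

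A second choice in Mapk14 did depend on the table. Transcripts with a coding sequence of 849 bases, led by Mapk14-203, held 42.4% ± 4.66 of Mapk14 TPM in the alignment-based tables and 24.3% ± 2.66 in the read-based tables (SD, n = 3). Those with the coding sequence of 1080 bases held 53.6% ± 4.97 and 58.5% ± 3.20.

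Mapk8 and Mapk9 each have a pair of mutually exclusive exons in the kinase domain that differ over a stretch of 71 bases, known to change how JNK binds substrates. In Mapk9 the exon of Mapk9-201 (chr11:49874265-49874335, plus strand) held 91.8%, 91.6% and 91.8% in replicates 1, 2 and 3, and 88.1% ± 0.84 (SD, n = 3) in the read-based tables. The stretch of Mapk9-202 lies at chr11:49873837-49873907. In Mapk8 the exon of Mapk8-203 (chr14:33390242-33390312, minus strand) held 63.9%, 70.6% and 62.3%, and 74.8% ± 4.43 in the read-based tables, and the stretch of Mapk8-205 lies at chr14:33390673-33390743.

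Each Mapk8 exon has a counterpart in Mapk9. Over these 71 bases the Mapk8-203 and Mapk9-201 exons were 78.9% identical and the Mapk8-205 and Mapk9-202 exons 81.7%, while the crossed pairs were 71.8% and 59.2% identical. The form that prevailed was the counterpart of the same type in both genes. In the alignment-based tables its share lay between 62.3% and 70.6% in Mapk8 and between 91.6% and 91.8% in Mapk9, with no overlap. The sequences are given with each form beside its counterpart.
Mapk8-203 exon: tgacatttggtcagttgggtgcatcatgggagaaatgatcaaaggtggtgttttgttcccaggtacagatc
Mapk9-201 exon: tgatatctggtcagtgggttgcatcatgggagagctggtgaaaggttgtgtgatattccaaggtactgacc
Mapk8-205 exon: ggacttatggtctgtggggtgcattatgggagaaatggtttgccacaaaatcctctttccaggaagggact
Mapk9-202 exon: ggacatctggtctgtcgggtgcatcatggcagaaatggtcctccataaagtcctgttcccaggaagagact

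The JNK genes also have a short and a long coding sequence that differ at the end. In Mapk8 the short form of 1152 bases held 58.1% ± 10.5 and the long form of 1281 bases 24.1% ± 0.46 of the gene's TPM in the alignment-based tables (SD, n = 3). In Mapk9 the short form of 1143 bases held 38.4% ± 1.65 and the long form of 1269 bases 51.5% ± 5.91. In the read-based tables the Mapk9 forms were at 44.1% ± 2.28 and 46.1% ± 2.52, which no longer separated.

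Map3k7 and Map4k3 each have a coding exon that is either kept or skipped. The Map3k7 exon of 81 bases (chr4:31994874-31994954, plus strand) was in 49.8%, 35.4% and 52.3% of the TPM of protein-coding forms in replicates 1, 2 and 3, and in 64.8% ± 10.9 (SD, n = 3) in the read-based tables, where both forms covered only 45.1% of the gene's TPM. The Map4k3 exon of 63 bases (chr17:80629286-80629348, minus strand) was in 41.2%, 31.7% and 49.8%, and in 47.5% ± 9.39 in the read-based tables. In both genes and in both kinds of table replicate 2 had the lowest share of the kept form.
Map3k7 cassette: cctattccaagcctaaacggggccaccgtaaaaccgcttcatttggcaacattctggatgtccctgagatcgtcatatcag
Map4k3 cassette: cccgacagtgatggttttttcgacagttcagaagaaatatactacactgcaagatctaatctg

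**Figure D3:**
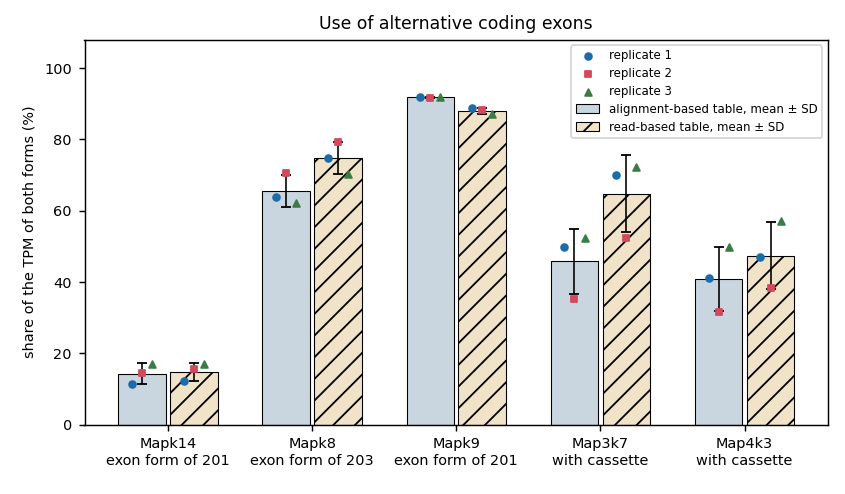
Share of TPM (%) of the first of 2 coding forms of 5 kinase genes, with bars for the mean, error bars for the SD over 3 libraries, and 1 symbol per library, in the alignment-based (plain) and read-based (hatched) tables. The Mapk9 bars lie at 91.8% and 88.1%, and replicate 2 is the lowest library in all 4 bars of Map3k7 and Map4k3.

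Transcripts with a retained intron were also scarcer in replicate 2. Of 23 detected members with such a transcript above 0, the share was lowest in replicate 2 for 16, with medians of 8.45%, 2.33% and 8.70% in replicates 1, 2 and 3. Over 5578 detected protein-coding genes the medians were lower, at 4.69%, 1.71% and 5.94%. Of those genes 76.3% were lowest in replicate 2, so in that count, though not in the size of the share, the kinases were near the background. The low Malat1 and Neat1 of that library, given above, moved with this, and their part in it was not tested.

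The spread of the kinases between libraries was like that of other detected genes in TPM, and on counts no set of like level was compared. The median SD of the 32 detected members was 0.16 on the log2(TPM + 1) scale, beside 0.16 over all detected protein-coding genes. Without replicate 1 both medians were lower, at 0.0962 and 0.0963, and without replicate 3 they were 0.190 and 0.158. On counts, the median biological coefficient of variation from edgeR was 0.110 for the detected members, with a range of 0.0933 to 0.164, beside 0.144 over 12752 genes that include lower-expressed ones. Part of the TPM spread was a shift common to all genes: the median log2 TPM of all detected protein-coding genes was 0.23 higher in replicate 1 than the mean of the other 2, and 0.14 and 0.09 lower in replicates 2 and 3.

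After centring on that median, 1 member deviated by 1.5-fold or more in a library. Map3k4, which encodes MEKK4, had 3.07, 2.56 and 4.25 TPM in replicates 1, 2 and 3, and was 0.69 higher in replicate 3 (log2) than the mean of the others. Over detected protein-coding genes 3.13% deviated by that much in replicate 3 in either direction, and 1 of 32 is near that background. In the alignment-based tables Map3k4-202, a processed transcript of 389 bases, held 20.0% of Map3k4 TPM in that library and was at 0 in the others, and in the read-based tables it held 0%, 1.94% and 16.7% in replicates 1, 2 and 3. On the CPM scale Map3k4 was at 21.5, 21.9 and 28.5, and it did not pass 1.5-fold on TMM-scaled counts, with DESeq2 size factors or in the read-based tables.

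In replicates 1 and 2 no member passed 1.5-fold in either direction, while 2.20% and 3.49% of detected protein-coding genes did. Map3k8, which Lipid A induces in macrophages, came to 0.36 higher in replicate 1 and 0.39 lower in replicate 2 (log2, centred). Map4k2 was 0.53 lower in replicate 2. In each library 31 of the 32 members lay between the 5 and 95 percentiles of all detected protein-coding genes.

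**Figure D4:**
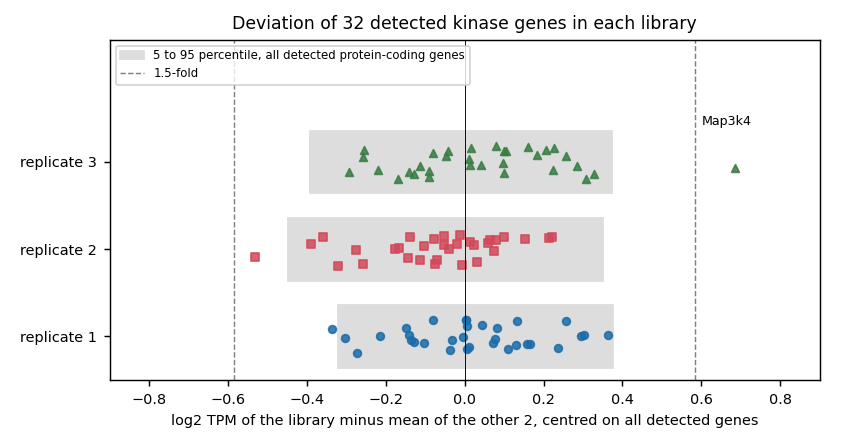
Log2 TPM of a library minus the mean of the other 2, centred on all detected protein-coding genes, for the 32 detected kinases, with 1 symbol per gene and a row per replicate. Grey bars span the 5 to 95 percentiles of all detected protein-coding genes, dashed lines mark 1.5-fold, and only Map3k4 in replicate 3 lies beyond them, at 0.69.

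Genes that act with these kinases were mostly detected. Of 12 genes of the RAS and RAF arm, which feeds Map2k1 and Map2k2, 10 were detected, and Rasgrp3 and Rasgrp4 were below 1 TPM in every library. The adaptor Grb2 was highest at 146 ± 19.9 TPM (SD, n = 3), followed by the small GTPase Nras at 24.5 ± 2.32.

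All 8 partners of Map3k7 and Map3k8 were detected. The ubiquitin-conjugating pair Ube2n and Ube2v1, which makes the chains that recruit TAK1, had 49.4 ± 7.91 and 47.3 ± 5.64 TPM (SD, n = 3), and the TAK1 adaptor Tab2 had 28.8 ± 4.84. Of 9 scaffold genes 5 were detected, led by Arrb2 at 103 ± 10.5 TPM, Lamtor3 at 33.1 ± 4.08 and Arrb1 at 21.3 ± 2.95. The RAF scaffolds Ksr1 and Ksr2 and the JNK scaffolds Mapk8ip1 and Mapk8ip2 were below 1 TPM in every library.

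Among 8 other kinases that act at the MAP3K or MAP4K level 6 were detected. Taok3 had 35.7 ± 3.15 TPM, Pak2 had 23.7 ± 2.32 and Mink1 had 18.1 ± 2.55 (SD, n = 3), while Mos and Tnik were below 1 TPM in every library. Of 8 kinases downstream of the MAPKs other than the MAPKAPKs 5 were detected. The eIF4E kinase genes Mknk2 and Mknk1 had 30.0 ± 4.43 and 25.0 ± 3.38 TPM, and the RSK gene Rps6ka1 had 25.1 ± 4.25, each below Mapkapk2 in every library. Rps6ka5 and Rps6ka6 were below 1 TPM in every library.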

How the data were processed

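Each of the 3 libraries had 3 deposited tables on the mm10 build and annotation M21. The deposited gene table holds expected counts, TPM, FPKM and bounds of TPM, per the file headers in the layout of RSEM. The deposited transcript tables hold estimated counts and TPM, either from alignments (RSEM layout) or from reads without an alignment file (kallisto layout), per the file headers. The deposited FPKM served only as an alternative. The sources used here do not name the quantifiers, their versions or the use of strand in counting.

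Rows that name no gene (26345, 0.104% to 0.356% of counts) were left out. Levels are log2(TPM + 1), where ratios of low genes come out too small, and values are mean ± SD of 3 libraries. TPM divides by effective length. In the read-based tables transcripts under 350 bases held 86.7% to 88.6% of TPM, and the part of effective length in this was not tested. Read-based values were therefore rescaled to the protein-coding total of the gene table, an alternative added after seeing the data. This applies to the read-based pair ratios in the report, and shares within a gene need no rescaling. Expected counts were rounded for edgeR 4.0.16 (intercept-only model, TMM) and DESeq2 1.42.0 (size factors) in R 4.3.3, with Python 3.11.15 for the rest. The edgeR spread and the measure of deviation of a library were tested on simulated data, and the DESeq2 size factors were not.

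With 1 group there was no comparison between groups. Members, pairs and lists were chosen with earlier results of these data known. Values are named for the 3 highest genes of each tier and each list, all genes of the pairs, all members or listed genes below 1 TPM in every library, and genes whose leading transcript differed between tables. Some genes and pairs that this rule names are not reported here. Family shares, exon use, retained introns, promoter counts and other named members were chosen after their values were seen. Coding sequences were cut from the M21 transcript sequences by the coding intervals of the annotation. Thresholds, pseudocounts, scalings, filters and leaving out each library were the alternatives.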

Additional observations from a re-analysis of the deposited data

How the results depend on the processing

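Detection changed by less than 1.5 times under every alternative run: 32 members were detected in the deposited TPM, 35 at a threshold of 0.5, 28 at 2, 34 by FPKM, 29 in the read-based TPM, 37 after rescaling over nuclear protein-coding genes, and 32 without any 1 library. The median level of 2.83 was 2.63 with a pseudocount of 0.1, 3.51 over detected members only, 1.80 in the read-based TPM and 4.43 after rescaling over nuclear protein-coding genes, and 2.76 to 2.91 with 1 library left out. The median SD of 0.16 was 0.0971 on TMM-scaled counts, 0.0992 in the read-based TPM and 0.0962 to 0.190 with 1 library left out, lowest without replicate 1. The number deviating by 1.5-fold was 0 in replicate 1 and 1 without centring (Map3k8) or without a filter (Mapk11), and 0 in replicate 2 and 1 without centring (Map4k2) or 3 without a filter. In replicate 3 it was 1, and 0 at 2-fold, on TMM-scaled counts, with DESeq2 size factors or in the read-based TPM, and 3 without a filter. Of 96 pair values under alternatives 63 moved by less than 1 SD, and 33 by more. Leaving out 1 of 3 libraries cannot move a mean by 1 SD, so those values say nothing on stability. All 33 came from another pseudocount, unit, scaling or kind of table. The sign changed in 1 of the 96, the ratio of Map2k1 to Map2k2, which was 0.08 and came to -0.03 without replicate 1. Its ranges overlapped. Of 128 leading-transcript shares 106 moved by less than 1 SD, but most of these came from leaving out 1 library, which again could not move them further. The 22 that moved by more were all in the read-based tables, where 27 of 32 leading shares were lower. No paired analysis was possible because there is 1 group. Depth limits statements on Mapk10, Mapk12, Mapk13, Mapk15, Map3k19, Map3k21 and Mapk4, which had 5 counts or fewer in each library.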

Other observations

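The CG content upstream of the kinase genes was counted in RefSeq promoter windows (GRCm38.p6), which matched 37 of the 46 members. The motif was the dinucleotide CG, which reads the same on both strands, in the 250 bases before the listed start. The 27 detected members had a median of 21 and the 10 others a median of 11.5. Over detected protein-coding genes the median was 17, and over those below 1 TPM in every library it was 4. Windows with 10 or more CG made up 92.6% of the detected members, 80.0% of the other members, 77.6% of detected protein-coding genes and 30.6% of those below 1 TPM in every library. Single members can depart from these medians, and 2 chosen after their values were seen are Mapkapk2, the highest member, with 9, and Mapk13, at 1 to 5 counts in a library, with 25. These are descriptions with no test.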
